A study of Mus musculus with 2 samples.

Results

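The 3 linked enzyme families of carbonyl metabolism were described across the small intestine of the mouse, namely the alcohol dehydrogenases (Adh), the aldehyde dehydrogenases (Aldh) and the aldo-keto reductases (Akr). Members were the protein-coding genes of the gene tables whose symbol starts with 1 of these 3 stems followed by a digit. This gave 44 genes of 21474 protein-coding genes, with 6 Adh, 21 Aldh and 17 Akr members. The rule used names alone and no measured value, but it was chosen with earlier results of these data known. The data are 2 poly(A)-selected RNA-seq libraries from C57BL/6J mice, a common inbred strain, aged 8 weeks. The labels number them biological replicates 1 and 2 of a single group with no treatment named, give them separate biosamples, and describe tissue pooled from males and females. No segment of the intestine is named, so each value is an average over whatever stretch and whatever cell types the tissue held. With 1 group there was no comparison of conditions and no test, and values are those of each replicate or their mean ± SD.

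The families act in sequence on the same small molecules. An alcohol dehydrogenase oxidises an alcohol such as ethanol or retinol to an aldehyde, and an aldehyde dehydrogenase oxidises that aldehyde to an acid, which turns acetaldehyde into acetate and retinal into retinoic acid. Aldo-keto reductases mostly run the other way, reducing aldehydes, sugars and keto steroids with NADPH, so the shared name of dehydrogenase describes few of them. Intestinal epithelium meets these compounds from the diet and from bacteria, and several amino acids are also broken down or built through aldehyde dehydrogenases of the mitochondrion.

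Replicate 1 held 45472946 expected counts and replicate 2 held 45822403, of which the 44 members took 88978 and 125249. The libraries differed in content. The 10 genes of a stomach list summed to 19753 TPM in replicate 1, against 51.5 TPM in replicate 2. TPM is relative abundance, counts divided by transcript length and scaled to a fixed library total. The 15 genes of an exocrine pancreas list summed to 272620 and 1792 TPM. All 15 of these had the higher TPM in replicate 1, as did 9 of the 10 stomach genes. The remaining stomach gene, Atp4b, was at 0.05 and 0.07 TPM. Markers of absorptive enterocytes were present in each, with the 6 listed genes summing to 6377 and 9578 TPM. These sums hide a split. Alpi, at 3759 and 1663 TPM, was the only 1 of the 6 with the higher TPM in replicate 1. The list's median was -1.58 on the centred log2 scale explained further on, so towards replicate 2. The goblet list of 4 summed to 5672 and 14287 TPM, the Paneth list of 3 to 1131 and 5135 TPM, the plasma cell list of 3 to 8852 and 21909 TPM, the smooth muscle list of 5 to 1040 and 892 TPM, and the fibroblast list of 5 to 98.2 and 109.7 TPM. Markers of other organs rich in these enzymes were low: the liver list of 10 summed to 9.54 and 6.28 TPM, led by Ttr (8.28 and 2.43 TPM) and Apoh (0.02 and 2.75 TPM), with albumin (Alb) at 0.24 and 0 TPM and the fibrinogen genes Fga and Fgb at 0, the kidney list of 5 to 0.20 and 0.19 TPM, and the adrenal cortex list of 5 to 0.79 and 1.68 TPM. The median gene lay at -0.66 on the log2 scale in replicate 1 relative to replicate 2, so a TPM set beside that of the other library carries this shift. TPM values, sums and their ratios are given as deposited, and only values named as centred have that median subtracted. In tissue RNA, fewer cells of a type and less RNA per cell cannot be told apart.

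Taken as a whole the families were widely present but of uneven level. Detection was set at 1 TPM or more in each of the libraries, which 28 of the 44 members (63.6%) reached, beside 49.3% of all protein-coding genes. By family the count was 4 of 6 Adh, 15 of 21 Aldh and 9 of 17 Akr members. Another 12 were under 1 TPM in both libraries, and 6 of these had no count in either, which is 13.6% of the members beside 22% of all protein-coding genes. The median member had 5.08 TPM in replicate 1, against 4.57 TPM in replicate 2, beside 1.08 and 1.58 TPM for all protein-coding genes. Members summed to 1298 and 2094 TPM (1696 ± 563, SD, n = 2), or 0.130% and 0.209% of all TPM. Aldh members gave 574 and 1132 TPM (853 ± 395), Akr members 461 and 778 TPM (619 ± 224), and Adh members 264 and 184 TPM (224 ± 56.8). As TPM, the Adh sum was higher in replicate 1 and the Aldh and Akr sums were higher in replicate 2. On the centred log2 scale explained further on, the median gene of each family lay on the side of replicate 1, at 1.09 for Adh, 0.17 for Aldh and 0.999 for Akr members with a mean TPM of at least 1.

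**Figure D1:**
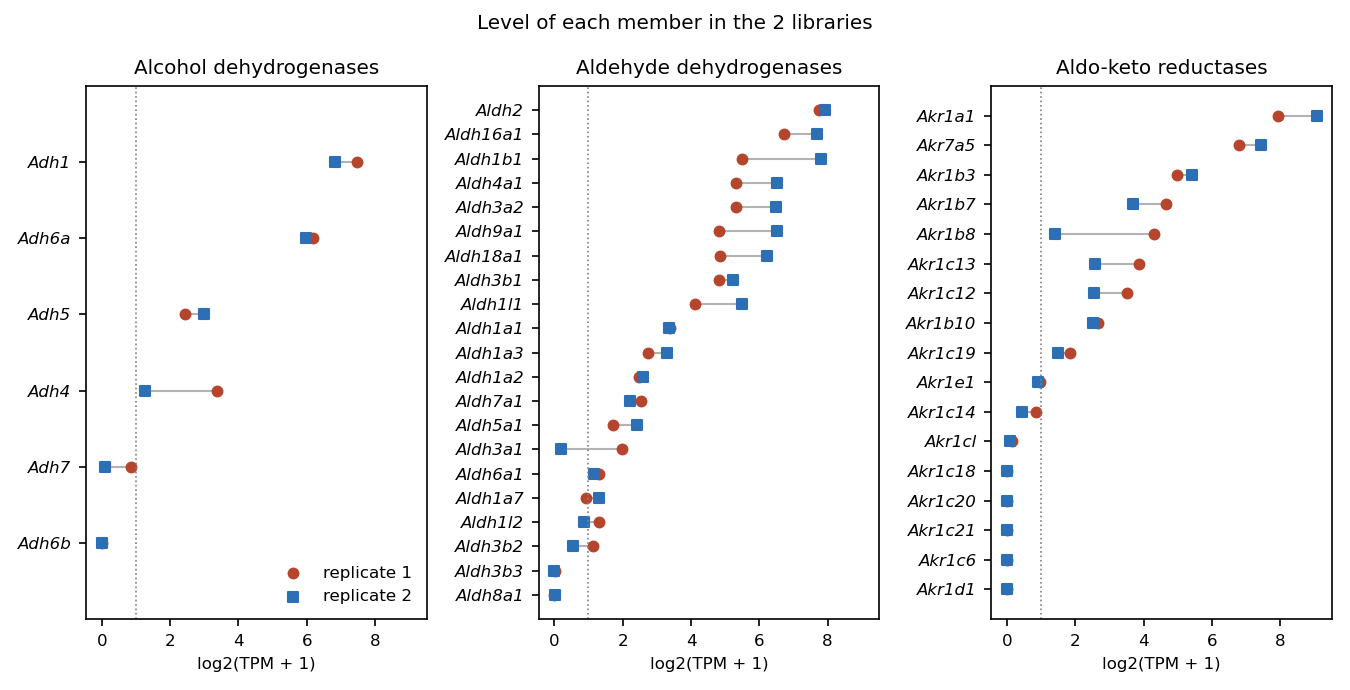
Level of each of the 44 members as log2(TPM + 1), with replicate 1 as circles and replicate 2 as squares, members of a family ordered by mean TPM, and a dotted line at 1 TPM. Akr1a1 is the highest of all, at 244 and 534 TPM, and the 6 members without counts sit at 0.

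Adh1 and Adh6a made up nearly all alcohol dehydrogenase RNA. Adh1, the class I enzyme that oxidises ethanol and retinol (ENSMUSG00000074207.6, chromosome 3, 138260991 to 138290698, GRCm38), stood at 177 TPM in replicate 1, against 113 TPM in replicate 2 (145 ± 45.7, SD, n = 2), from 9532 and 4440 counts. It held 67.2% and 61.4% of the family's TPM. Adh6a followed at 71.9 and 62.4 TPM (67.2 ± 6.76), or 27.3% and 34.0% of the family. As gene totals, these 2 genes kept the same order in each library, and their levels were further apart than the spread of either. By coding transcripts alone that order did not hold. Both annotated Adh6a transcripts are coding, whereas Adh1 has a single coding transcript, Adh1-201, described further on. In replicate 1 Adh1-201 (87.0 TPM) lay above Adh6a, whereas in replicate 2 (30.8 TPM) it lay below. Adh5, the glutathione-dependent formaldehyde dehydrogenase that also reduces S-nitrosoglutathione, is usually described as present in most tissues and was at 4.43 and 7.04 TPM here. Adh4, a class II enzyme best known from liver, was at 9.46 and 1.41 TPM, from 519 and 61 counts. Adh4 and Adh5 therefore changed places between the libraries, and their means of 5.43 ± 5.69 and 5.74 ± 1.85 TPM did not differ beyond that spread. Adh7 is the class IV enzyme of stomach and upper digestive tract. It was at 0.82 TPM (131 counts) in replicate 1, against 0.06 TPM (8 counts) in replicate 2. Any gene higher in replicate 1 lies on the side of the stomach and pancreas lists above. The part of stomach RNA in the Adh7 value was not tested. Adh6b had no count in either library, where 3 counts would have given 0.0369 and 0.0471 TPM.

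The Adh1 total came from a pair of transcripts that differ at their start and across exons 2 and 3. Adh1-201, the coding transcript of 9 exons and 1492 nt, held 87.0 TPM in replicate 1, against 30.8 TPM in replicate 2. Adh1-202, of 8 exons and 1115 nt and annotated as a target of nonsense-mediated decay, held 86.6 and 81.9 TPM. Their shares of the gene were 49.1% and 27.3% for Adh1-201 and 48.9% and 72.7% for Adh1-202. As TPM, without centring, the level of Adh1-202 was thus close in the libraries and that of the coding transcript was lower in replicate 2. Centred, the whole gene was at 1.31 on the log2 scale, towards replicate 1. Adh1-202 leaves exon 2 after 21 of its 102 bases (at 138279751) and skips exon 3 (138280374 to 138280512). The 60 bases across that point are shown because a read across this point tells the transcripts apart, with capitals for the 30 bases after the point where Adh1-202 leaves exon 2, of which the first 3 are the same in both (GENCODE M21, GRCm38, plus strand, transcript positions 235 to 294 of Adh1-201 and 78 to 137 of Adh1-202):
Adh1-201: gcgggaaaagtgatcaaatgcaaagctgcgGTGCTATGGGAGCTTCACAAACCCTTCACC
Adh1-202: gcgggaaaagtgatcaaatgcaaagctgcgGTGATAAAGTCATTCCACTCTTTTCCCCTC

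Among the aldehyde dehydrogenases, the acetaldehyde enzymes of the mitochondrion were high in both libraries. Aldh2, the main acetaldehyde dehydrogenase (ENSMUSG00000029455.10, chromosome 5, 121566027 to 121593824), was at 213 and 244 TPM (229 ± 21.8, SD, n = 2). Aldh1b1, its close mitochondrial relative (ENSMUSG00000035561.5, chromosome 4, 45799022 to 45804604), was at 44.2 TPM from 4058 counts in replicate 1, against 225 TPM from 17463 counts in replicate 2 (134 ± 128). The library with the lower value held 0.196 times the TPM of the other, whereas for Aldh2 this was 0.874. Centred, Aldh1b1 was at -1.66 and Aldh2 at 0.47 on the log2 scale. As gene totals, these genes were near each other in replicate 2 and not in replicate 1. By transcripts of at least 1000 nt they were apart in each library. Aldh2 then stood at 107.7 and 103 TPM and Aldh1b1 at 38.1 and 212 TPM. Aldh16a1, a large member whose substrate is not assigned here, was at 105 and 204 TPM (154 ± 69.6). Its exons overlap Pih1d1 on the opposite strand, at 20.4 and 39.65 TPM.

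The retinal dehydrogenases, which make retinoic acid, were each under 10 TPM. Aldh1a1 was at 9.47 and 9.30 TPM (9.38 ± 0.12, SD, n = 2), the smallest relative spread of any member above 1 TPM. Aldh1a3 was at 5.66 and 8.93 TPM and Aldh1a2 at 4.57 and 5.05 TPM. Aldh1a7, a rodent relative of Aldh1a1 that lies beside it on chromosome 19, was at 0.89 and 1.47 TPM. The deposited credibility intervals overlapped for Aldh1a1 and Aldh1a2 and lay higher in replicate 2 for Aldh1a3 and Aldh1a7. Centred, the 4 genes were at 0.69 (Aldh1a1), 0.55 (Aldh1a2), 0.09 (Aldh1a3) and 0.28 (Aldh1a7) on the log2 scale, all within 2-fold. They summed to 20.6 and 24.7 TPM. Aldh1a1 and Aldh1a7 share 1380 of 1506 coding bases (91.6%), and 47 of the 1978 windows of 76 nt in Aldh1a1, the read length, occur unchanged in Aldh1a7. Their first 150 coding bases are shown to let the copies be compared, with capitals where they differ (GENCODE M21, GRCm38, chromosome 19, plus strand for Aldh1a1 and minus strand for Aldh1a7):
Aldh1a1: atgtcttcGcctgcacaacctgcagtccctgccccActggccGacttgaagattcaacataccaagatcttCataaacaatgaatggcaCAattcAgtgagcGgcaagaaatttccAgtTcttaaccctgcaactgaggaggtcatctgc
Aldh1a7: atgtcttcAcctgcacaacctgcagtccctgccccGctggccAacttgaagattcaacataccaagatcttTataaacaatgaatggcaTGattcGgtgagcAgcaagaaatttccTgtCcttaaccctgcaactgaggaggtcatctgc
With 10 differences in that stretch, most reads name the gene they come from.

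Aldehyde dehydrogenases that serve amino acids were split into abundant and scarce genes. Aldh4a1, which completes the breakdown of proline to glutamate, was at 38.7 and 90.3 TPM (64.5 ± 36.5, SD, n = 2). Aldh9a1, which acts in carnitine synthesis, was at 27.1 and 91.5 TPM (59.3 ± 45.5). Aldh18a1, the pyrroline-5-carboxylate synthase that opens the route to proline, ornithine and citrulline, was at 27.8 and 73.6 TPM (50.7 ± 32.4). All 3 had the higher TPM in replicate 2, and centred they were at -0.54 (Aldh4a1), -1.05 (Aldh9a1) and -0.71 (Aldh18a1). In contrast the lysine enzyme Aldh7a1 was at 4.76 and 3.68 TPM, the GABA enzyme Aldh5a1 at 2.30 and 4.38 TPM, and the valine enzyme Aldh6a1 at 1.49 and 1.23 TPM. Aldh8a1, of tryptophan breakdown, had 0 counts in replicate 1 and 1 count in replicate 2.

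Of the enzymes of fatty and aromatic aldehydes, Aldh3a2, the fatty aldehyde dehydrogenase of endoplasmic reticulum and peroxisome, was at 38.7 and 88.5 TPM (63.6 ± 35.2, SD, n = 2) and Aldh3b1 at 27.1 and 36.2 TPM (31.7 ± 6.43). Aldh3a1, known for its abundance in cornea and stomach, was at 2.99 TPM (226 counts) in replicate 1, against 0.14 TPM (8 counts) in replicate 2. This is again the side of both the stomach and pancreas lists, and the part of stomach RNA was not tested. Aldh3b2 was at 1.18 and 0.45 TPM and Aldh3b3 had 1 and 0 counts. These neighbours on chromosome 19 share 90.1% of the positions of their coding alignment, and 18.1% of the read-length windows of Aldh3b2 occur in Aldh3b1 or Aldh3b3, so their low values are uncertain. The folate enzymes, which oxidise formyl tetrahydrofolate, stood apart by compartment: the cytosolic Aldh1l1 was at 16.5 and 44.2 TPM and the mitochondrial Aldh1l2 at 1.47 and 0.82 TPM.

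Transcript shares bear on several of these gene totals, because TPM divides counts by length and a short annotated fragment with few counts can hold much TPM. For Aldh16a1, transcripts of at least 1000 nt held 76.1% and 81.0% of the counts but 24.4% and 30.5% of the TPM, or 25.7 and 62.2 TPM. A transcript of 521 nt held 63.1 and 129.5 TPM from 915 and 1548 counts. Most counts, 2954 and 5342, fell on a transcript of 3537 nt at 17.6 and 40.9 TPM, while Aldh16a1-201, of 2685 nt, was at 7.29 and 19.6 TPM. For Aldh2, transcripts of at least 1000 nt held 107.7 and 103 TPM, beside the gene totals of 213 and 244 TPM, and the difference lay in Aldh2-204, of 656 nt, at 106 and 141 TPM. Counted this way, in TPM, Aldh2 was nearly level in the libraries and Aldh1b1 was at 38.1 and 212 TPM. A pair of coding Aldh1l1 transcripts traded places: that of 3043 nt held 41.0% and 69.7% of the gene's TPM and that of 4175 nt held 58.05% and 30.1%. Of the 31 members with a mean TPM of at least 1, 23 had more than 1 annotated transcript, and in 20 of the 23 the same transcript led in each library. In 10 of them it held at least 90% of the gene. No member had a leading transcript under 50% in the mean of both libraries, but 2 did within each library alone.

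**Figure D2:**
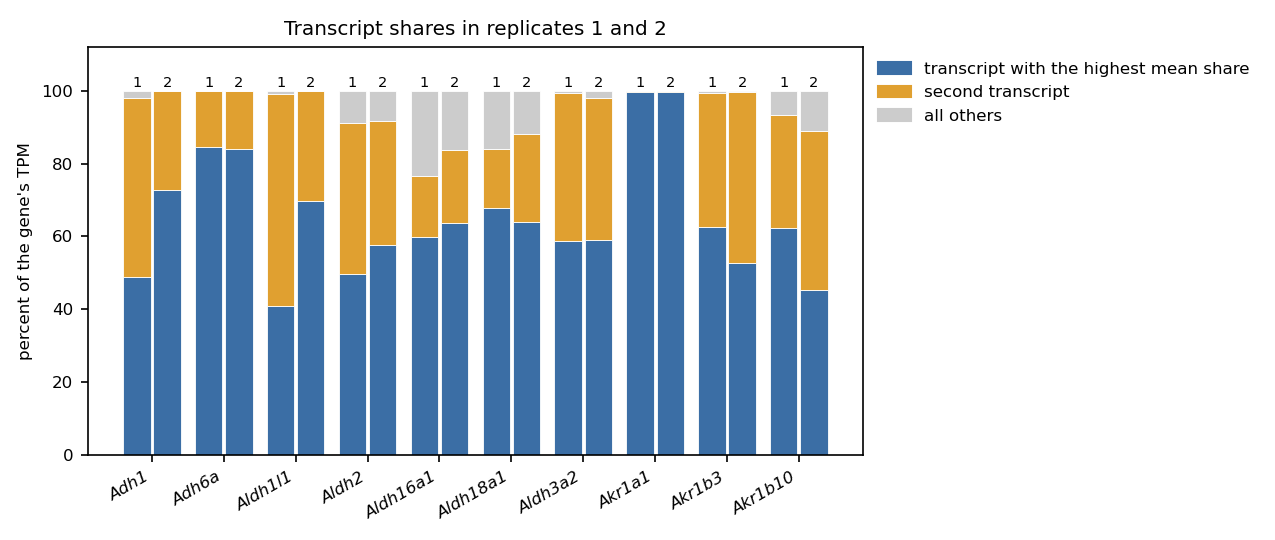
Percent of each gene's TPM from its leading transcript, its second transcript and all others, in replicates 1 and 2, for 10 members. Akr1a1 rests on 1 transcript (99.7% in each library), whereas the leading transcript of Adh1 moves between 48.9% and 72.7%.

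Aldo-keto reductase RNA was mostly that of the general aldehyde reductases. Akr1a1, which reduces many aldehydes and in mice also makes the precursor of vitamin C (ENSMUSG00000028692.10, chromosome 4, 116636510 to 116651680), was at 244 and 534 TPM (389 ± 205, SD, n = 2), rank 273 among 21474 protein-coding genes by mean. Akr7a5, an enzyme of aflatoxin aldehyde and succinic semialdehyde, was at 109 and 171 TPM (140.0 ± 43.6). Akr1b3, the aldose reductase that turns glucose into sorbitol, was at 30.7 and 41.9 TPM, of which a 2-exon transcript of 554 nt annotated as a retained intron held 11.3 and 19.7 TPM. All 3 had the higher TPM in replicate 2, and centred they lay within 2-fold, at -0.46 (Akr1a1), 0.02 (Akr7a5) and 0.23 (Akr1b3).

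The aldose-reductase-like genes beside Akr1b3 on chromosome 6 had the higher TPM in replicate 1, and centred they lay on the same side as Akr1b3, at 3.57 (Akr1b8), 1.62 (Akr1b7) and 0.82 (Akr1b10). Akr1b8 (ENSMUSG00000029762.6, 34354119 to 34368463) was at 18.9 TPM from 1078 counts in replicate 1, against 1.65 TPM from 74 counts in replicate 2 (10.3 ± 12.2, SD, n = 2), an 11.4-fold ratio of TPM. Akr1b7, first known from vas deferens and adrenal gland (ENSMUSG00000052131.7, 34412334 to 34423142), was at 24.15 and 11.9 TPM (18.0 ± 8.63). Akr1b10, which lies between them, was at 5.41 and 4.75 TPM (5.08 ± 0.47), and its deposited credibility intervals overlapped. Within this cluster of 4 genes, the share of Akr1b8 was 23.9% in replicate 1 and 2.74% in replicate 2, and that of Akr1b3 was 38.8% and 69.6%. Coding identity was 89.3% between Akr1b10 and Akr1b7 and 85.1% between Akr1b10 and Akr1b8, and 5 of 1283 read-length windows of Akr1b8 occur in another member, so few reads could be shared.

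In the Akr1c cluster, a run of 9 genes over 560 kb of chromosome 13 that encode steroid reductases and their relatives, 3 genes were detected. Akr1c13 was at 13.5 and 4.94 TPM (9.21 ± 6.03, SD, n = 2), Akr1c12 at 10.4 and 4.90 TPM (7.64 ± 3.87) and Akr1c19 at 2.57 and 1.83 TPM (2.20 ± 0.52). Exons of Akr1c19 overlap the pseudogene Marcksl1-ps4 on the same strand, at 2.48 and 1.38 TPM, so its value is uncertain. Akr1c12 and Akr1c13 did not differ in level beyond their spread, and both were higher in replicate 1. Akr1e1, at the end of the run and known as an anhydrofructose reductase, was at 0.95 and 0.88 TPM, and Akr1c14, a steroid dehydrogenase, at 0.79 and 0.35 TPM. Akr1c6, Akr1c18, Akr1c20 and Akr1c21 had no count, nor had Akr1d1, the steroid reductase of bile acid synthesis on chromosome 6. Over these 5 genes 3 counts would have given at most 0.0992 TPM in replicate 1, against 0.124 TPM in replicate 2. Their deposited credibility intervals reached higher, up to 0.545 and 0.640 TPM for Akr1d1. Akr1cl, on chromosome 1, had 4 counts in each library.

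Akr1c12 and Akr1c13 are near copies, with 935 of 972 coding bases the same (96.2%), and 201 of the 1186 read-length windows of Akr1c12 (16.9%) occur unchanged in Akr1c13. Their counts were not whole (543.50 and 202.11 for Akr1c12, 668.50 and 193.89 for Akr1c13), as when a quantifier divides reads. The first 150 coding bases are shown because they hold 2 differences (capitals), so a read that falls between these and the end of the stretch fits either gene (GENCODE M21, GRCm38, chromosome 13, minus strand for Akr1c12 and plus strand for Akr1c13):
Akr1c12: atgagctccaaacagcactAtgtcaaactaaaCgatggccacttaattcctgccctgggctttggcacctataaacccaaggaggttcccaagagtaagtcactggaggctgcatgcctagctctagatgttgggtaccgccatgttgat
Akr1c13: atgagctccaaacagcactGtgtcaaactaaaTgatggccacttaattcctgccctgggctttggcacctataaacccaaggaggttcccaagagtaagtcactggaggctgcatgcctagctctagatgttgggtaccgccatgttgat
Taken as a sum, which does not depend on the division, the pair was at 23.9 and 9.84 TPM (16.8 ± 9.91, SD, n = 2).

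**Figure D3:**
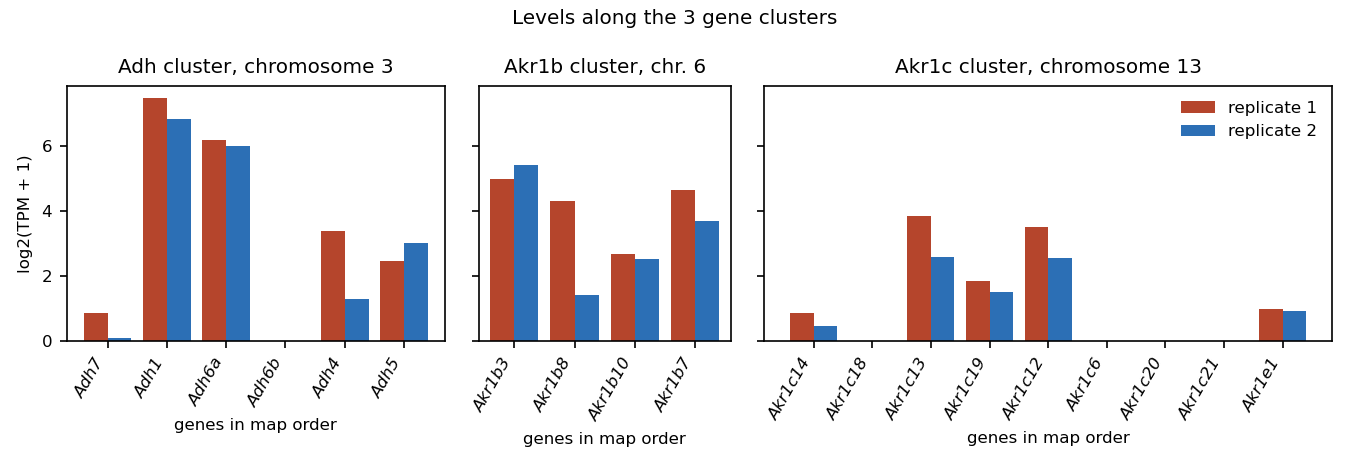
Levels as log2(TPM + 1) of the genes of the Adh, Akr1b and Akr1c clusters in map order, with replicate 1 left of replicate 2 and bars from 0. Genes without counts lie beside expressed ones, as with Adh6a (71.9 and 62.4 TPM) beside Adh6b (no count).

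Differences between the replicates were then set against those of all genes. The measure was log2(TPM + 1) in replicate 1 minus that in replicate 2, minus its median over the 12218 annotated genes with a mean TPM of at least 1. It is a description of 2 libraries of 1 group, and the pseudocount understates the difference of low genes. Of the 31 members that passed this minimum, 8 (25.8%) were at least 2-fold higher in replicate 1, beside 6.33% of all genes. Another 2 (6.45%) were at least 2-fold lower in replicate 1, beside 5.02% of all genes, which is a share near that background. Without the centring the counts were 4 higher and 7 lower, beside 3.12% and 24.9% of all genes. With counts scaled by TMM factors they were 10 and 1, beside 6.24% and 4.32%. The median member lay at 0.47 on this log2 scale, and all genes lie at 0 by construction. Values ran from -1.66 for Aldh1b1 to 3.57 for Akr1b8.

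The 8 genes higher in replicate 1 were Akr1b8 (3.57 on the centred log2 scale), Adh4 (2.78), Aldh3a1 (2.47), Akr1c13 (1.95), Akr1b7 (1.62), Akr1c12 (1.61), Adh1 (1.31) and Aldh1l2 (1.10). Of these, Aldh3a1 and Aldh1l2 passed the minimum through replicate 1 alone, and Aldh1l2 was past 2-fold in 3 of 9 other settings. Just under the line lay Akr1c19 (0.999) and Aldh7a1 (0.96). The 2 genes lower in replicate 1 were Aldh1b1 (-1.66) and Aldh9a1 (-1.05). Family by family, 4 of 9 Akr, 2 of 4 Adh and 2 of 18 Aldh members that passed the minimum were higher in replicate 1. The 2 Aldh members are Aldh3a1 and Aldh1l2, and the Akr members include the near copies Akr1c12 and Akr1c13. The deposited TPM intervals, which are not centred, had replicate 1 above in 8 members (25.8%, beside 6.38% of all genes), replicate 2 above in 16 (51.6%, beside 73.5%) and overlapped in 7 (22.6%, beside 20.1%). The 8 higher members lie on the same side as the stomach and pancreas lists by construction, since they were called as higher in replicate 1. When those lists were left out of the TPM total, with no centring, 7 members were at least 2-fold higher in replicate 1 and 2 lower, beside 4.79% and 8.39% of all genes. How much member RNA came from those organs was not tested.

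**Figure D4:**
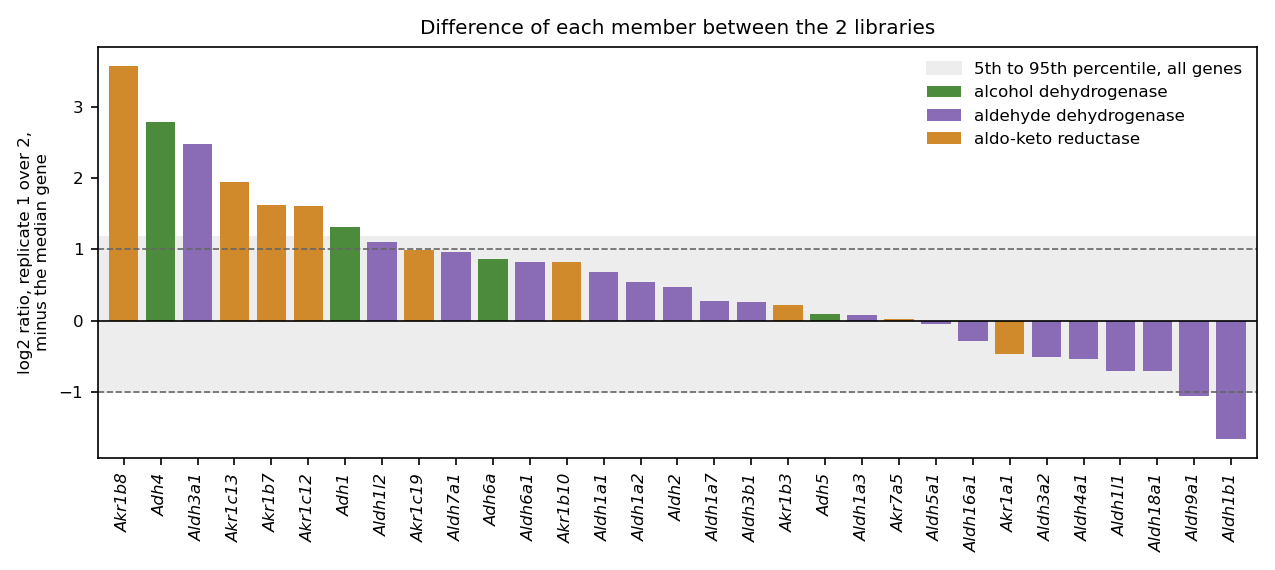
Centred log2 ratio of TPM + 1, replicate 1 over replicate 2, for the 31 members with a mean TPM of at least 1, coloured by family. Dashed lines mark 2-fold and the grey band the 5th to 95th percentile of all genes (upper end 1.18), above which Akr1b8 reaches 3.57 and below which Aldh1b1 reaches -1.66.

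Genes of the same pathways were followed in 5 further lists. Nrf2, encoded by Nfe2l2, is the transcription factor that raises many detoxifying enzymes under oxidant or electrophile stress, and aldo-keto reductases are among its known targets. Of the 17 genes in this list 15 passed the minimum, of which 7 were at least 2-fold higher in replicate 1 and 1 (Srxn1, -1.01) at least 2-fold lower, beside 6.33% and 5.02% of all genes. Of the 7, Gsta3 (1.90 and 0.86 TPM) passed the minimum through replicate 1 alone. The glutathione transferase Gsta1 was at 128 and 12.6 TPM (3.91 on the centred log2 scale), Gsta4 at 55.1 and 5.29 TPM (3.82), Gstm1 at 297 and 107.1 TPM (2.13), the quinone reductase Nqo1 at 30.3 and 7.95 TPM (2.47) and the malic enzyme Me1 at 12.8 and 4.08 TPM (2.11). Gsta1 has near-identical relatives, so its own share is uncertain. Others of the list did not share this: Gclm, a subunit of the enzyme of glutathione synthesis, was at 129 and 371 TPM (-0.85), Srxn1 at 147 and 470 TPM, Txnrd1 at 43.3 and 50.6 TPM (0.44), and Nfe2l2 itself at 34.1 and 51.2 TPM (0.09). The list's median was 0.71, beside 0.47 for the members.

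Ethanol and retinoid genes were followed next. In the ethanol list of 6, catalase (Cat) was at 44.7 and 92.8 TPM and the acetate-activating enzymes Acss1 and Acss2 at 107.1 and 124 TPM and at 7.30 and 15.7 TPM, all within 2-fold after centring. Cyp2e1, the ethanol-oxidising cytochrome of liver, was at 0.09 and 0.06 TPM. Of the 21 retinoid genes 15 passed the minimum, with a median of 0.06. Rbp2, the intestinal retinol carrier, was at 273 and 483 TPM, the retinal reductase Dhrs3 at 24.6 and 58.3 TPM, and the retinol dehydrogenases Rdh7 and Rdh10 at 24.8 and 59.8 TPM and at 7.22 and 9.76 TPM.

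In the list of amino acid and folate partners, 14 of the 17 genes matched passed the minimum, none was past 2-fold higher in replicate 1 and 3 were lower there, beside 6.33% and 5.02% of all genes. These were the proline oxidase gene Prodh (20.8 and 72.9 TPM, -1.10), its relative Prodh2 (0.53 and 15.9 TPM, -2.80), which passed the minimum through replicate 2 alone, and the ornithine aminotransferase gene Oat (29.97 and 205 TPM, -2.07). They flank Aldh4a1 and Aldh18a1 in the proline and ornithine pathway, whose own values were -0.54 and -0.71, on the same side but within 2-fold. Pycrl, which makes proline, was at 62.1 and 100.1 TPM (-0.01), Abat, which precedes Aldh5a1 in GABA breakdown, at 6.25 and 18.3 TPM (-0.75), and Chdh, the choline dehydrogenase, at 33.5 and 74.9 TPM (-0.47).

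**Figure D5:**
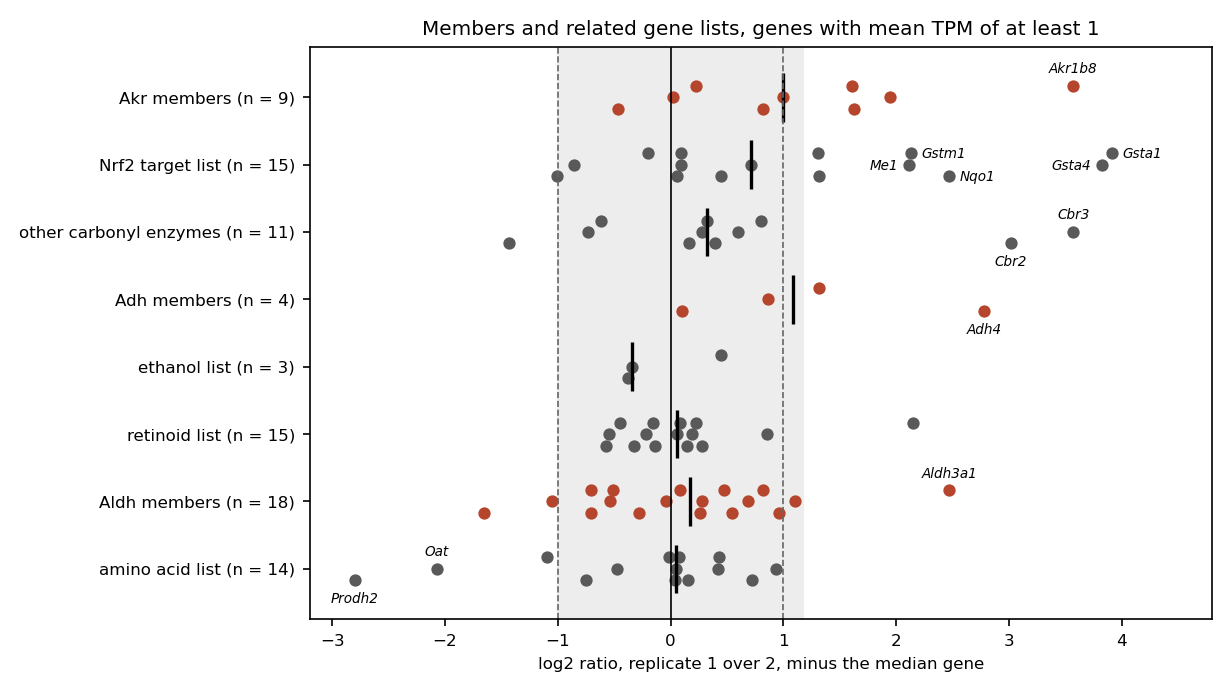
Centred log2 ratio, replicate 1 over replicate 2, for members (red) and related lists (grey), each point a gene with a mean TPM of at least 1, with a black bar at each median, dashed lines at 2-fold and a grey band for the 5th to 95th percentile of all genes. Gsta1 (3.91), Gsta4 (3.82), Cbr3 (3.57) and Akr1b8 (3.57) lie farthest to the right and Prodh2 (-2.80) farthest to the left.

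The starts of the genes were searched for short motifs in the RefSeq windows of 300 bases (GRCm38.p6), which held 35 of the 44 members. The antioxidant response element core, TGACNNNGC on either strand, to which Nrf2 binds, occurred in 5 members (Adh6a, Aldh1a2, Aldh9a1, Akr1c19 and Akr1cl) of these 35, and in 12.4% of all 32851 windows. A TATA box (TATAAA) occurred in 6 members and in 13.6% of all windows, CCAAT in 20 members and 37.4%, and GTTAAT, part of the site bound by HNF1, in 3 members and 7.10%. Akr1b8 and Akr1b7, the neighbours with higher values in replicate 1, hold no match to the response element core in this window, which says only that these letters are absent there. Their windows and that of Adh6a are shown to set the neighbours beside a member with a match. Capitals mark the motifs: TATAAA on the minus strand at -159 and GTTAAT on the minus strand at 37 in Akr1b8, CCAAT at -199 and -64 in Akr1b7, and the response element at -235 with a TATA box at -31 in Adh6a, counted from the start RefSeq annotates. The windows lie at chr6:34353896-34354195, chr6:34412112-34412411 and chr3:138313036-138313335, all on the plus strand:
Akr1b8: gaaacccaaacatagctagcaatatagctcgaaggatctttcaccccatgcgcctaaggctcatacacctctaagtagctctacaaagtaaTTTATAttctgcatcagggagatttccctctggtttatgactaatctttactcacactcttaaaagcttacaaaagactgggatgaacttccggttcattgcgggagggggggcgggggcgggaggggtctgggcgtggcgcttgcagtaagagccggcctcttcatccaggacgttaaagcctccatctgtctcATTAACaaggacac
Akr1b7: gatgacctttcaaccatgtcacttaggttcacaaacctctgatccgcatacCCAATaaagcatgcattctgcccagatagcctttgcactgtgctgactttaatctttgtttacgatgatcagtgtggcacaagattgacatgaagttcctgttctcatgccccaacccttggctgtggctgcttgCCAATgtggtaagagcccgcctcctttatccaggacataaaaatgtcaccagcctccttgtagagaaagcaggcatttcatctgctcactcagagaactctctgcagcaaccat
Adh6a: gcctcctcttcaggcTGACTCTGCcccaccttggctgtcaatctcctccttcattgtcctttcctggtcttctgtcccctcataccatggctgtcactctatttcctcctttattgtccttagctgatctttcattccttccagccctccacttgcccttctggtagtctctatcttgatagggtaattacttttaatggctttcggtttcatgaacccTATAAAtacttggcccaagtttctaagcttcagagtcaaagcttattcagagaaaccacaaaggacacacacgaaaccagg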

How the data were processed

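The 2 libraries of 1 group were analysed. The deposited tables give, per gene and per transcript, expected counts (estimated fragments, which need not be whole), TPM (relative abundance over all features, spike-ins included) and FPKM (fragments scaled by length and library total). For transcripts, the deposited tables add a percent, the part of its gene's TPM. The deposited bounds of a credibility interval are a signal on the TPM scale whose level is not stated. The text deposited with the tables names mm10 and annotation M4. Aligner and quantifier: not given in the sources used here. The column names are those RSEM writes. Labels describe stranded paired reads of 76 nt from RNA above 200 nt.

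Genes were named and placed with GENCODE M21 (GRCm38, also called mm10) after version numbers were removed from identifiers, and 7 of the 44 members have the same version in both. Totals are 45472946 and 45822403 expected counts. A floor of 3 counts, set for a gene at 0, is 6.60e-06% of replicate 1 and 6.55e-06% of replicate 2. It covers counting error only and is not a maximum, as deposited intervals of some genes at 0 reach higher. Mean fragment lengths of 237 and 219 nt leave few possible positions for fragments on short transcripts. Detection means 1 TPM or more in each library. Replicate ratios used a pseudocount of 1, a mean TPM of at least 1, a 2-fold line and centring on the median of 12218 genes. TMM factors (edgeR 4.0.16, R 4.3.3) and DESeq2 1.42.0 size factors on expected counts rounded to whole numbers served as alternatives. The ratio steps were tested on simulated data. The simulation held no difference in content like that of the stomach and pancreas lists, so it does not test centring under it. Other values used Python 3.11.15, pandas 2.3.3, numpy 2.4.6 and Biopython 1.88, which aligned the longest coding sequences.

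Exons of Aldh16a1, Aldh1l2, Aldh6a1 and Aldh7a1 overlap protein-coding genes on the opposite strand, and whether counting used strand is not given in the sources used here. Named genes could be any member, any gene of the pathway lists, and from marker lists the 3 highest or those under 1 TPM in both libraries. The members and lists were chosen with earlier results of these data known. A result for 1 gene of the retinoid list is not reported here, although the gene stays in that list's counts and median.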

Additional observations from a re-analysis of the deposited data

How the results depend on the processing

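With 2 libraries of 1 group, precision is limited by the number of replicates. Depth also limits the members with few counts, since those with a mean TPM of at least 1 held from 8 to 25318 counts per library. No paired analysis was possible because there is 1 group. The count of 28 detected members was between 28 and 31 under a TPM of at least 0.5, FPKM, posterior mean TPM, a minimum of 10 counts, transcripts of at least 1000 nt and either library alone (29 and 31), and 17 at a TPM of at least 5. Family sums moved by less than their SD under every other scaling tried and with transcripts of at least 1000 nt alone. That SD is wide, as the 2 libraries differ in content. The Aldh sum (SD 395) went from 853 to 568 TPM with transcripts of at least 1000 nt. The Adh sum (SD 56.8) went from 224 to 278 TPM without the stomach and pancreas lists. With either library alone a shift under that SD was fixed in advance, because the SD comes from the same 2 libraries. Without the highest member (chosen after the values were seen) the sums moved past it for Adh (78.8 TPM) and Akr (230.3 TPM). The 8 members higher in replicate 1 became 4 with a mean TPM of at least 10, 4 without centring, 14 at a fold of 1.5 and 3 at a fold of 4. The 2 lower ones became 1 under TMM factors, DESeq2 size factors, a pseudocount of 0.1 or a mean TPM of at least 10, 4 with no minimum or at a fold of 1.5, 7 without centring and 0 at a fold of 4. By construction, fewer genes enter at the higher minimum, fewer pass a higher fold and more pass a lower fold. Leaving out the centring lowers every ratio by the same amount, so fewer higher and more lower members were also fixed in advance. With no minimum the subtracted median changes too, and Adh1 went from 1.31 to 0.98. The cause of the other shifts was not tested. No member past 2-fold changed sign. Adh4, Akr1b8, Akr1c13, Aldh1b1 and Aldh3a1 stayed past 2-fold in each setting that gave a value, Aldh9a1 in 7 of 11 (-1.72 to -0.90), Adh1 in 9 of 11, Akr1c12 in 9 of 10 and Akr1b7 in 10 of 11. Members with a leading transcript under 50% numbered 0 in the mean, 2 to 2 in either library alone and 2 by posterior mean.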

Other observations

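Other carbonyl-handling enzymes outside the 3 families gave values on the same scales. Of the 16 genes in that list 11 passed a mean TPM of at least 1, with 2 at least 2-fold higher in replicate 1 and 1 lower, beside 6.33% and 5.02% of all genes, and a median of 0.32 on the centred log2 scale. Dhrs11, a short-chain dehydrogenase, was at 236 and 625 TPM (-0.73), above every member except Akr1a1 in replicate 1 and above all of them in replicate 2. Cbr1, the main carbonyl reductase of the cytosol, was at 155 and 141 TPM (0.80), while its relative Cbr3 was at 31.3 and 3.31 TPM (3.57), the same centred difference as that of Akr1b8. Cbr2 was at 9.11 and 0.98 TPM (3.02) and passed the minimum through replicate 1 alone. Sord, which takes sorbitol made by aldose reductase on to fructose, was at 12.9 and 58.6 TPM (-1.43), with Akr1b3 itself at 0.23. The aldehyde oxidases Aox1, Aox2, Aox3 and Aox4 were each under 1 TPM in both libraries, whereas their relative Xdh, xanthine dehydrogenase, was at 71.1 and 101.2 TPM.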
